A study of Mus musculus with 6 samples.

Results

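The genes of DNA replication and mitosis form a proliferation program that was followed here through 6 mouse RNA-seq libraries as 39 genes chosen by name, 14 that act in S phase and 25 that act in mitosis. The summed level of the genes found was far higher in 3 of the libraries than in the others, by steps that ranged from wide to none among single genes, and those 3 did not follow the sample labels. Among the 39 genes, 32 were found by gene name (13 S-phase and 19 mitotic) among 48733 named genes, and all 32 were among the 12112 genes tested, which had a mean level of at least 1 FPKM, which counts fragments after scaling to transcript length and to the size of the library.

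Cells duplicate their genome in S phase and divide it in mitosis. The MCM helicase is loaded onto replication origins by Cdc6 and Cdt1, the sliding clamp PCNA holds the polymerases on the template, and ribonucleotide reductase supplies deoxynucleotides. Transcription of these genes is driven by E2F factors as cells leave G1. Later, cyclin B and Cdk1 drive entry into mitosis, Aurora and Polo kinases build the spindle, checkpoint kinases hold division until chromosomes are attached, and the anaphase-promoting complex ends it. In bone, most osteoblasts in late differentiation and all osteocytes have left the cell cycle, whereas marrow precursors of blood cells divide rapidly.

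The 6 libraries were all of the strain CC016/GeniUnc, which is inbred and belongs to the Collaborative Cross, with 3 libraries labelled bone and 3 labelled osteoblasts, and the study describes them as biological replicates from 3 mice. The bone libraries were made from cortical femur with the marrow spun out. The osteoblast libraries were made from cultured marrow stromal cells that had been kept for 7 days and then differentiated for 8 days in medium with dexamethasone at 10 nM, ascorbic acid at 50 µg/ml and beta-glycerophosphate at 10 mM. No genetic change separated the groups, the labels do not tie a bone library to an osteoblast library, no age is given, and no sort of the marrow culture is described. Whether the culture held hematopoietic cells beside stromal ones was not tested.

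The labels were first set against cell type markers, and 3 libraries stood apart. Hbb-bt, an adult beta-globin of red cells, was at 34838 FPKM in bone 3, 34268 in osteoblasts 2 and 48650 in osteoblasts 3, and between 3.43 and 7.05 in bone 1, bone 2 and osteoblasts 1. The summed level of 7 of 7 neutrophil markers ranged from 14246 to 17225 FPKM in the first 3 and from 0.430 to 5.51 in the others, where Elane was listed at 0. B-lineage markers, 5 of 6 found, summed to between 113 and 124 FPKM against at most 0.264, with Cd79a and Cd79b listed at 0. Erythroid markers, 4 of 8 found, summed to between 35188 and 49734 against at most 7.26 FPKM. Skeletal muscle markers, 3 of 5 found, reached between 221 and 943 FPKM against at most 1.09, with Tnnt3 listed at 0. Macrophage markers were arranged the other way, with all 5 lowest in the same 3 libraries (393 to 518 FPKM against 1327 to 2636). Osteoblast markers, 5 of 6 found, summed to 1676 to 2404 FPKM in the same 3 libraries and to 2769 to 4530 in the others, most of it Col1a1. Runx2 was between 5.78 and 15.1 FPKM over all 6. Ibsp, bone sialoprotein, was at 43.1 to 91.3 FPKM in the Hbb-bt-rich libraries and at 986 to 1278 in the others, and Alpl, the mineralization phosphatase, was also lowest in the former (66.0 to 94.1 against 95.4 to 205 FPKM). Progenitor markers, 4 of 4 found, summed to between 26.4 and 33.8 FPKM in the Hbb-bt-rich libraries and between 3.56 and 6.98 in the others. Osteocyte markers, 4 of 5 found, summed to between 45.4 and 51.7 FPKM in the Hbb-bt-rich libraries and between 55.3 and 133 in the others. Within that list Dmp1 was at 50.0 to 127 FPKM in the Hbb-bt-poor libraries, highest in osteoblasts 1, and at 22.5 to 24.2 in the others, whereas Sost was at 0.066 to 0.198 and at 15.8 to 22.7. These libraries therefore carry their labels as names only below, and each is also described by whether Hbb-bt exceeded 1000 FPKM in it.

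Other measures also differed between libraries. Aligned sequence, computed from coverage and FPKM, ranged from 2.035 to 3.388 Gb, so that 3 read pairs on a 1 kb transcript corresponded to between 0.133 and 0.221 FPKM. Unnamed features held 71.5% of the FPKM in bone 2 and 65.0% in osteoblasts 1 but 27.4% to 30.7% in the other 4 libraries. The median of 8 housekeeping genes (2 more were not found) ranged from 25.3 to 55.2 FPKM.

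The promoters of the members are shown first. The motifs searched include known elements of S-phase and of late cell cycle promoters. A difference between the classes in these motifs describes the promoters and is not an independent result. Promoter windows of 300 bases (250 before and 50 after the RefSeq transcription start, GRCm38.p6) were on hand for 12 S-phase and 21 mitotic members. Ccna2, Tpx2, Kif20a, Gins2, Mcm4 and Aurkb had none. The motifs searched, on both strands, do not contain one another. They were the E2F site, TTTGGCGC or TTTCCCGC, the CCAAT box bound by NF-Y, CCAAT, and the cell cycle genes homology region (CHR), TTTGAA or TTCGAA, an element of late cell cycle promoters. In the sequences printed here capitals mark these motifs and all else is in lower case, reading 5′ to 3′ on the strand of the gene.

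Mcm3 (chr1:20820263-20820562, minus strand) and Mcm6 (chr1:128359656-128359955, minus strand) encode helicase subunits and are shown as the S-phase promoters with a pair of E2F matches each.
Mcm3: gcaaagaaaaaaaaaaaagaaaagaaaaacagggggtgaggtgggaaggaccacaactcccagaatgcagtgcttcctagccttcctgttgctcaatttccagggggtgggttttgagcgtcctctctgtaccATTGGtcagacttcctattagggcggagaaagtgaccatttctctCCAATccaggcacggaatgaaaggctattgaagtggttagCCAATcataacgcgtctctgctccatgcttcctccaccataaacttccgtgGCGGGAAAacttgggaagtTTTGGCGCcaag
Mcm6: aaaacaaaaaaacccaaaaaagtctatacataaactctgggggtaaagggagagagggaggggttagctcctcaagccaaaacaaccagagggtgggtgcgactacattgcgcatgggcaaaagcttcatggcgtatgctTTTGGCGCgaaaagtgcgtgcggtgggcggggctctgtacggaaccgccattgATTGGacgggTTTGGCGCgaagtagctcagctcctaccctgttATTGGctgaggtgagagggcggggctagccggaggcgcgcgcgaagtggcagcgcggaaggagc

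Plk1 (chr7:122159185-122159484, plus strand), Ccnb2 (chr9:70421505-70421804, minus strand) and Cdk1 (chr10:69352863-69353162, minus strand) encode Polo-like kinase 1, cyclin B2 and the kinase that cyclin B activates. They are shown because each holds both a CHR and a CCAAT box.
Plk1: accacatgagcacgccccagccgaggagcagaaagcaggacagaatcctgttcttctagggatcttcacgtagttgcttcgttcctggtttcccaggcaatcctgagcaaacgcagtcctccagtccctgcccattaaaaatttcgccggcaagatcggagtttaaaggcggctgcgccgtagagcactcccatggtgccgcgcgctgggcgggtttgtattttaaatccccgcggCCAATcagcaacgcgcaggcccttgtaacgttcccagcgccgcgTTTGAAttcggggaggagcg
Ccnb2: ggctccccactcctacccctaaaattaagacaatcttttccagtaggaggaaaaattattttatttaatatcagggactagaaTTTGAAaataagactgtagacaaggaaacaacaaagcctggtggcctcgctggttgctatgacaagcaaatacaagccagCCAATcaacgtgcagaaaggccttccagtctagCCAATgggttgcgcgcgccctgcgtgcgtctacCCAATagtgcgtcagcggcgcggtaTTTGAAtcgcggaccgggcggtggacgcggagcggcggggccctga
Cdk1: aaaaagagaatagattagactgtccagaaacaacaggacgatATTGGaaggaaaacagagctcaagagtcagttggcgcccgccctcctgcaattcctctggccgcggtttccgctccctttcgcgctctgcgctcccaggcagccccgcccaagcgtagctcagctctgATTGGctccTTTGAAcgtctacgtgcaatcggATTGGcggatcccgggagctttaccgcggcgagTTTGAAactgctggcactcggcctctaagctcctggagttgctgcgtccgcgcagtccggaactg

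An E2F match was present in 6 of 12 S-phase promoters (Mcm3, Mcm5, Mcm6, Mcm7, Cdc6 and Cdt1) and in 0 of 21 mitotic ones, beside 1.80% of 27025 genes with a window. A CHR was present in 16 of 21 mitotic promoters and in 2 of 12 S-phase promoters, beside 21.7% of all. Of the 16 mitotic genes, 15 had a CHR within 50 bases of the start, as at position 31 in Plk1, 5 in Ccnb2 and -15 in Cdk1, counted from 1 at the start base with -1 just before it. A CCAAT box was present in 18 of 21 mitotic and 8 of 12 S-phase promoters, beside 41.1% of all, and all 16 mitotic promoters with a CHR also held one, a combination present in 9.65% of all. A match describes letters only, and no test was made of these shares.

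In FPKM, 31 of the 32 members had their 3 highest values in the libraries with Hbb-bt above 1000 FPKM, beside 38.4% of all genes tested. The exception was Bub1. None of the 32 had its 3 highest values in the libraries labelled osteoblasts, beside 0.479% of all genes. The lowest value in the Hbb-bt-rich libraries exceeded the highest in the others by 18.3 times for Ube2c down to 1.10 times for E2f1, and for Bub1 the ratio was 0.605. The median of this ratio was 2.75 over the S-phase members and 4.12 over the mitotic members, and it was at least 5 for 4 and 8 of them. The ratio was not taken over all genes, so its size is not read as a trait of the members. In bulk tissue or culture, fewer cells of a type and less RNA per cell cannot be told apart. Of the marker sums given above, the erythroid, neutrophil, B-lineage, skeletal muscle and progenitor sums were also higher in the Hbb-bt-rich libraries. The macrophage, osteoblast and osteocyte sums were lower there. The part of these cell types in the member levels was not tested.

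The count depended in part on scaling. With each library scaled to the same sum over named genes, 26 of 32 members kept the pattern, beside 21.4% of all genes, and Mcm4, E2f1, Bub1, Cenpe, Ttk and Mad2l1 did not. With scaling to the housekeeping median, 31 of 32 had it, beside 45.6% of all genes, and Bub1 again did not.

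**Figure D1:**
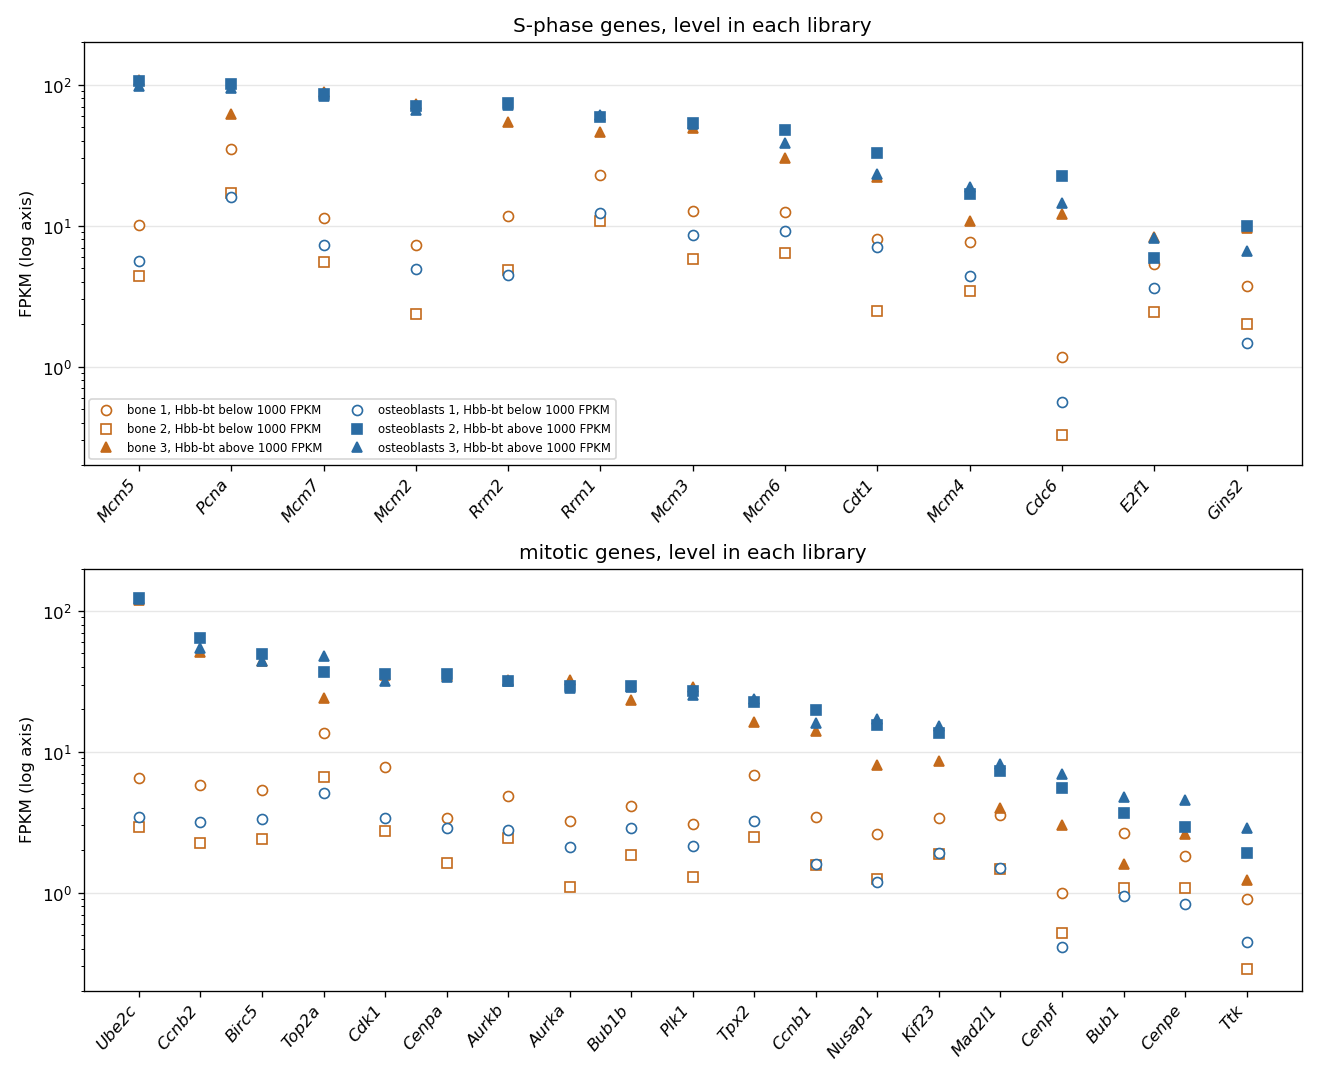
Level of each of the 32 members in each library, in FPKM on a log axis, with S-phase genes above and mitotic genes below, each ordered by mean level. Colors mark the label, shapes the replicate number and filled symbols the libraries with Hbb-bt above 1000 FPKM; filled symbols lie above open ones for 31 genes and are mixed for Bub1.

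Values are given below in FPKM in the order bone 1, bone 2, bone 3, then osteoblasts 1, osteoblasts 2, osteoblasts 3. Among the S-phase genes, the 6 subunits of the MCM2-7 helicase, which unwinds DNA at the fork, shared 1 order of the Hbb-bt-poor libraries (bone 1, osteoblasts 1, bone 2) but had unequal steps to the others. Mcm5 measured 10.2, 4.38 and 109, then 5.60, 106 and 97.3. Mcm2 measured 7.26, 2.35 and 72.5, then 4.93, 70.9 and 65.9. Mcm7 measured 11.4, 5.50 and 89.6, then 7.24, 86.2 and 83.8. In these 3 genes the bone 3 value was the highest of all, and the gap to the Hbb-bt-poor libraries was 9.56, 9.08 and 7.33 times. Mcm3 measured 12.7, 5.80 and 49.3, then 8.59, 53.8 and 52.8. Mcm6 measured 12.6, 6.38 and 30.1, then 9.17, 48.1 and 38.3. Mcm4 measured 7.64, 3.43 and 10.9, then 4.41, 16.9 and 18.9. For Mcm6 and Mcm4 the gap was smaller, at 2.39 and 1.42 times, and bone 3 was the lowest of the Hbb-bt-rich libraries. The deposited Mcm7 feature overlaps Ap4m1 and 3 microRNA genes (Mir25, Mir93 and Mir106b), so its level can include their reads.

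The factors that load and fire the helicase differed in range. Cdc6, the ATPase that loads MCM2-7, measured 1.16, 0.327 and 12.2, then 0.557, 22.7 and 14.4, a 69.5-fold range from lowest to highest and the widest of any member. Its partner Cdt1 measured 8.01, 2.49 and 22.0, then 7.06, 32.6 and 23.3. Both were highest in osteoblasts 2, and the highest Hbb-bt-poor value was in bone 1. Gins2, a subunit of the GINS complex that activates the helicase, measured 3.71, 2.01 and 9.64, then 1.47, 9.97 and 6.59. Its deposited feature runs 87698 bases beyond the RefSeq gene and covers Gse1, Emc8 and Cox4i1 among others, so the Gins2 level is uncertain.

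Pcna, the sliding clamp, was the most abundant S-phase gene in all Hbb-bt-poor libraries, at 35.0, 17.1 and 62.2, then 16.0, 102 and 94.4. Its gap was 1.78 times. Pcna-ps2, a pseudogene named in the same files, was listed at between 3.34 and 29.9 FPKM, so reads may be split between the copies. Rrm1 and Rrm2 encode the large and the small subunit of ribonucleotide reductase, of which the small one is the more tightly tied to S phase. Rrm1 measured 22.8, 10.8 and 46.5, then 12.2, 58.8 and 61.3. Rrm2 measured 11.6, 4.83 and 54.6, then 4.48, 74.2 and 72.0. The gap was 4.69 times for Rrm2 and 2.03 times for Rrm1. E2f1, a transcription factor that activates S-phase genes, varied least, at 5.33, 2.44 and 8.32, then 3.59, 5.88 and 8.16, and the libraries nearly touched (osteoblasts 2 against bone 1).

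Among the mitotic genes, cyclin B and its kinase were low and high in the same libraries. Ccnb1, cyclin B1, measured 3.42, 1.58 and 14.1, then 1.60, 19.7 and 16.0. Ccnb2, cyclin B2, measured 5.82, 2.24 and 51.4, then 3.15, 63.8 and 54.9. Cdk1 measured 7.75, 2.75 and 35.2, then 3.41, 35.8 and 31.9. Their gaps were 4.13, 8.82 and 4.12 times, with bone 1 the highest of the Hbb-bt-poor libraries for each. A pseudogene, Ccnb1-ps, is listed at 0.662 to 13.3 FPKM and could share reads with Ccnb1.

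The mitotic kinases other than the checkpoint kinases were nearly level across the Hbb-bt-rich libraries. Aurka, which matures the centrosomes, measured 3.25, 1.10 and 32.2, then 2.09, 29.5 and 28.3. Aurkb, the kinase of the chromosomal passenger complex, measured 4.85, 2.44 and 32.3, then 2.80, 32.0 and 32.0. Plk1, which acts from entry to exit, measured 3.05, 1.28 and 28.9, then 2.13, 26.9 and 25.5. Over those 3 libraries the highest value was 1.14, 1.01 and 1.13 times the lowest. Birc5, survivin, a partner of Aurkb in that complex, measured 5.32, 2.41 and 44.2, then 3.35, 49.3 and 44.4. Tpx2, which activates Aurka on the spindle, measured 6.84, 2.50 and 16.2, then 3.22, 22.7 and 23.8.

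Genes of the spindle checkpoint differed among themselves. Bub1b, whose product BubR1 inhibits the anaphase-promoting complex, measured 4.14, 1.87 and 23.5, then 2.89, 29.1 and 28.8, with a gap of 5.67 times. Bub1, a checkpoint kinase of the kinetochore, measured 2.66, 1.08 and 1.61, then 0.945, 3.67 and 4.77. Bone 3 thus lay below bone 1 for Bub1, and the sets of libraries overlapped. Ttk, the kinase Mps1, measured 0.897, 0.287 and 1.22, then 0.450, 1.93 and 2.88. Mad2l1, the checkpoint protein Mad2, measured 3.58, 1.46 and 4.01, then 1.49, 7.33 and 8.15, so that bone 3 was 1.12 times bone 1. The Mad2l1 feature runs 6113 bases beyond the RefSeq gene.

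The centromere genes divided in the same way. Cenpa, the centromeric histone H3 variant, measured 3.37, 1.63 and 34.6, then 2.87, 35.4 and 34.1, with a gap of 10.1 times. Its feature runs 6846 bases beyond RefSeq. Cenpe, a kinetochore motor, measured 1.81, 1.09 and 2.62, then 0.826, 2.92 and 4.56. Cenpf, a large kinetochore protein, measured 1.00, 0.520 and 3.02, then 0.409, 5.51 and 6.90. Cenpe and Cenpf were highest in osteoblasts 3, whereas Cenpa was nearly equal across the 3 Hbb-bt-rich libraries.

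The remaining mitotic genes act on chromosomes, the spindle and mitotic exit. Top2a, the topoisomerase that untangles sister chromatids, measured 13.5, 6.59 and 24.1, then 5.10, 36.9 and 47.6. Kif23, a motor of the central spindle, measured 3.37, 1.88 and 8.57, then 1.90, 13.6 and 15.1. Nusap1, a microtubule-binding spindle protein, measured 2.62, 1.26 and 8.01, then 1.18, 15.5 and 17.1. In these 3 genes bone 3 lay below both osteoblast libraries that were rich in Hbb-bt, by up to 2.13 times, and their gaps of 1.78, 2.54 and 3.06 times were under the mitotic median. Nusap1 overlaps Oip5 and Top2a overlaps an uncharacterized RefSeq locus in the deposited features. Ube2c, the ubiquitin-conjugating enzyme of the anaphase-promoting complex, measured 6.53, 2.94 and 119, then 3.46, 123 and 121, with the widest gap of all members. Its feature overlaps Tnnc2, fast muscle troponin C, which was listed at 0 in the 3 Hbb-bt-poor libraries and at 126 FPKM in bone 3, 32.0 in osteoblasts 2 and 73.5 in osteoblasts 3, so the size of its gap is uncertain. Across those 3 libraries the highest Ube2c level was 1.03 times the lowest. The share of Tnnc2 reads in the Ube2c feature was not tested.

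Of the 7 members with no feature under their own name, 6 lay under a single unnamed feature that covered at least 80% of both spans, and these are given apart. Tyms, thymidylate synthase, measured 3.27, 1.34 and 15.9, then 1.48, 35.0 and 16.6. Mki67, the widely used proliferation antigen Ki-67, measured 11.4, 4.50 and 19.7, then 4.61, 23.8 and 46.01. Ccna2, cyclin A2, measured 6.52, 2.83 and 28.2, then 3.17, 41.9 and 40.7. All had their 3 highest values in the Hbb-bt-rich libraries. Kif11, the motor that separates spindle poles, measured 3.29, 1.43 and 3.87, then 1.15, 10.5 and 11.8. Kif20a, a motor of cytokinesis, measured 4.33, 1.97 and 12.4, then 2.39, 15.0 and 16.8. Cdc20, an activator of the anaphase-promoting complex, measured 7.49, 2.92 and 58.8, then 3.81, 68.5 and 51.6. These were arranged in the same way, which gives 37 of 38 members when the unnamed features are counted. Prc1, a bundler of spindle microtubules, lay inside a feature named Sema4b and has no value.

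Within the Hbb-bt-poor libraries, bone 1 held the highest value for all 32 named members, and the lowest was in bone 2 for 24 and in osteoblasts 1 for 8. The ratio of bone 1 to osteoblasts 1 had a median of 1.86 over the members and of 1.60 over 11464 genes above 0 in every library. It was above 1 for all 32 members and for 10634 of those genes, so this order is not particular to the members. Within the bone label, the ratio of bone 3 to bone 1 had a median of 2.75 over the S-phase members and 4.13 over the mitotic members, against 0.851 over those genes. Within the osteoblast label, osteoblasts 2 over osteoblasts 1 had a median of 6.35 and 11.5, against 1.43. Each label thus held libraries on both sides of the step.

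The S-phase and mitotic sums kept different proportions. The 13 S-phase genes summed to 149, 67.8 and 576 FPKM in the bone libraries and to 85.4, 688 and 637 FPKM in the osteoblast libraries. The 19 mitotic genes summed to 83.8, 36.9 and 485 FPKM and to 43.3, 554 and 548 FPKM. The ratio of the S-phase to the mitotic sum, which does not depend on how a library is scaled, was 1.78, 1.84 and 1.19 and then 1.97, 1.24 and 1.16. It lay between 1.16 and 1.24 where Hbb-bt was high and between 1.78 and 1.97 where it was low. Ube2c, of uncertain level, made up 22.1% to 24.6% of the mitotic sum in the former and 7.78% to 8.00% in the latter, and without it, a choice made after seeing the data, the ratio was 1.93, 2.00 and 1.58 and then 2.14, 1.59 and 1.49, so that the ranges moved closer without overlap. By label, the log2 ratio was 0.65 ± 0.35 (SD, n = 3) in bone and 0.50 ± 0.42 (SD, n = 3) in osteoblasts, a difference of -0.15 that is smaller than either SD. With the 6 unnamed features included, the ratio was 1.31, 1.37 and 0.974 and then 1.49, 1.01 and 0.915.

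**Figure D2:**
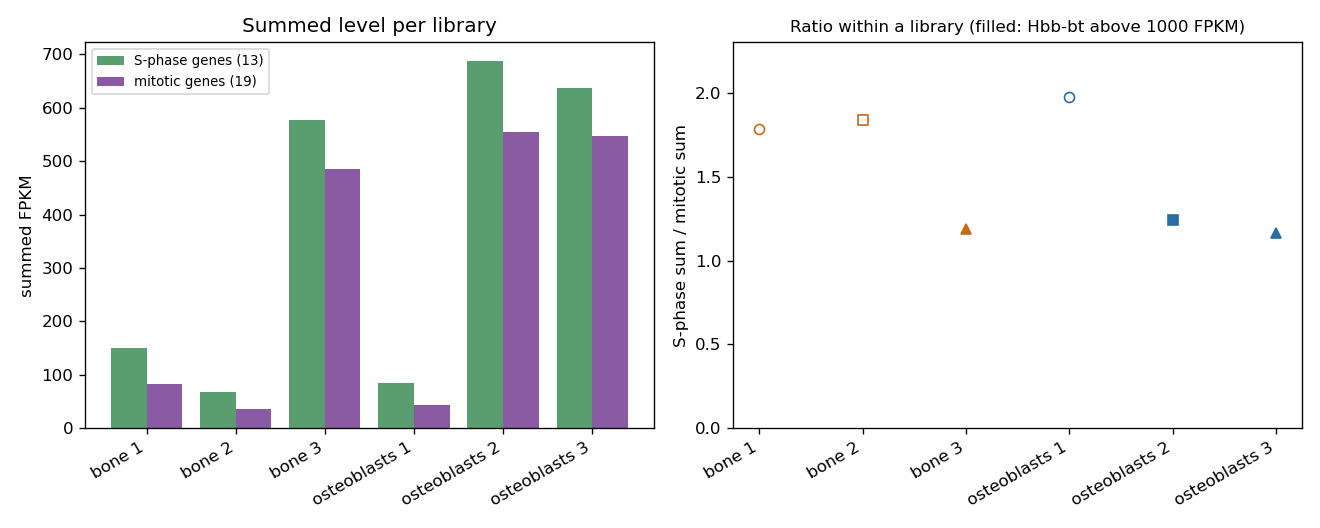
Summed FPKM of the 13 S-phase and 19 mitotic genes in each library (left, bars) and the ratio of these sums within each library (right, points, filled where Hbb-bt is above 1000 FPKM). The sums are higher and the ratio is lower in bone 3, osteoblasts 2 and osteoblasts 3, at 1.16 to 1.24.

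Set against other measures of library content, the step in the sums remained. As parts per 1e6 of the FPKM on named genes, the S-phase sum was 251.2, 190.4 and 658.4, then 218.8, 799.2 and 773.7, and the mitotic sum was 140.9, 103.7 and 554.1, then 111.0, 644.2 and 665.0. Divided by the housekeeping median, the S-phase sum was 2.71, 2.68 and 16.3, then 2.28, 16.9 and 14.6. The mitotic sum over the same median was 1.52, 1.46 and 13.7, then 1.16, 13.6 and 12.5. In both forms the 3 Hbb-bt-rich libraries lay above the others without overlap.

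The comparison that the labels define, osteoblasts against bone, was then tested with limma on log2(FPKM + 1) over all 12112 genes, a scale that understates changes of low genes. The call rate was 0% at an adjusted p of 0.05, and 17 genes had an unadjusted p under 0.05, of which 0 were members. All 32 differences were positive, with a median of 0.88 on the log2 scale for S-phase genes (lowest 0.15, in Gins2) and 0.86 for mitotic genes (0.30 in Cenpe to 1.41 in Ube2c), beside a median of 0.12 for all genes, of which 62.6% were positive. Leaving out bone 2 lowered the medians to 0.23 and 0.28 and turned Cdk1 (-0.026) and E2f1 (-0.22) below 0, and leaving out osteoblasts 3 turned E2f1 (-0.065). The medians were 0.44 and 0.47 without osteoblasts 2, 0.45 and 0.40 without osteoblasts 3, 1.66 and 1.60 without bone 3, and 1.67 and 1.75 without osteoblasts 1. Among the 7 genes fixed for printing, the difference was 0.67 (SE 0.82) for Top2a, 0.72 (SE 1.00) for Cdk1, 0.80 (SE 0.90) for Ccnb1, 0.67 (SE 0.80) for Pcna, 1.27 (SE 1.25) for Mcm2, 0.96 (SE 1.13) for Rrm2 and 0.17 (SE 0.50) for E2f1, each with an adjusted p of 0.999 in limma. For all 32 members the difference of label means in FPKM was smaller than the larger of the label SDs. This was not counted over all genes, so it is not read as a trait of the members. Of the Hbb-bt-rich libraries, 2 carried the osteoblast label and 1 the bone label. Without osteoblasts 1, limma called 2.48% of all genes and 2 of the 32 members, Cdc6 (log2 difference 2.51, adjusted p 0.0336) and Ube2c (3.01, adjusted p 0.0426).

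**Figure D3:**
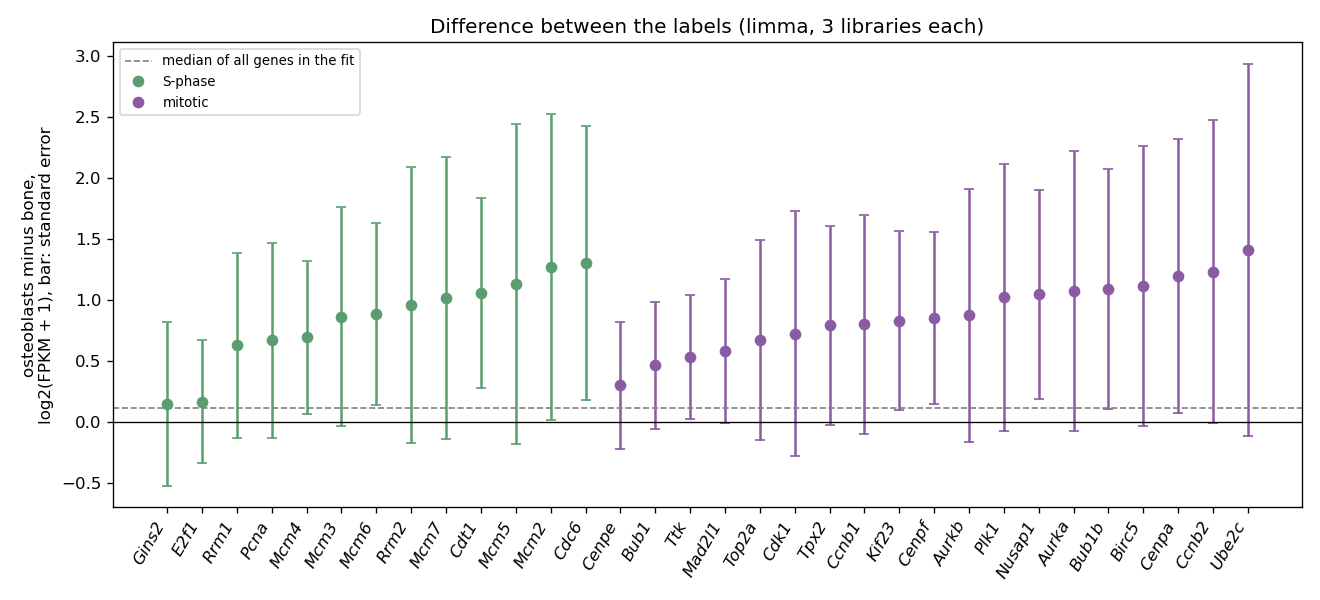
Difference between the labels for the 32 members, osteoblasts minus bone on log2(FPKM + 1), with bars of 1 standard error from limma (3 libraries per label). All points lie above 0, between 0.15 and 1.41, and none was called.

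Levels also differed within the Hbb-bt-rich set in a way that moved with the base composition of the transcripts. Across the 32 members, the log2 ratio of osteoblasts 3 to bone 3 and the GC content of the longest coding transcript had a Spearman correlation of -0.81, and across 8928 genes tested it was -0.63. The genes share both libraries and are not independent replicates. Bub1, Cenpf, Ttk and Top2a, of low GC content, were up to 2.96 times higher in osteoblasts 3. At high GC content several values lay near 0 on either side. On the log2 scale Plk1 was at -0.18, Mcm2 at -0.14 and E2f1 at -0.03. Cdt1, of the highest GC content (58.8%), was at 0.08 and Ube2c at 0.02. The lowest value of all members was -0.55 in Gins2 (GC content 53.4%), whose level is uncertain. For osteoblasts 2 over bone 3 the correlation was -0.71 among members and -0.41 among all genes. Median GC content was 52.1% for S-phase and 47.2% for mitotic members, beside 50.3% for all, so differences between the classes among these 3 libraries carry this value with them, and its part in them was not tested. For bone 3 over bone 1 the correlation was 0.58 among members and 0.41 among all genes, and for osteoblasts 3 over osteoblasts 1 it was 0.12 and 0.13.

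**Figure D4:**
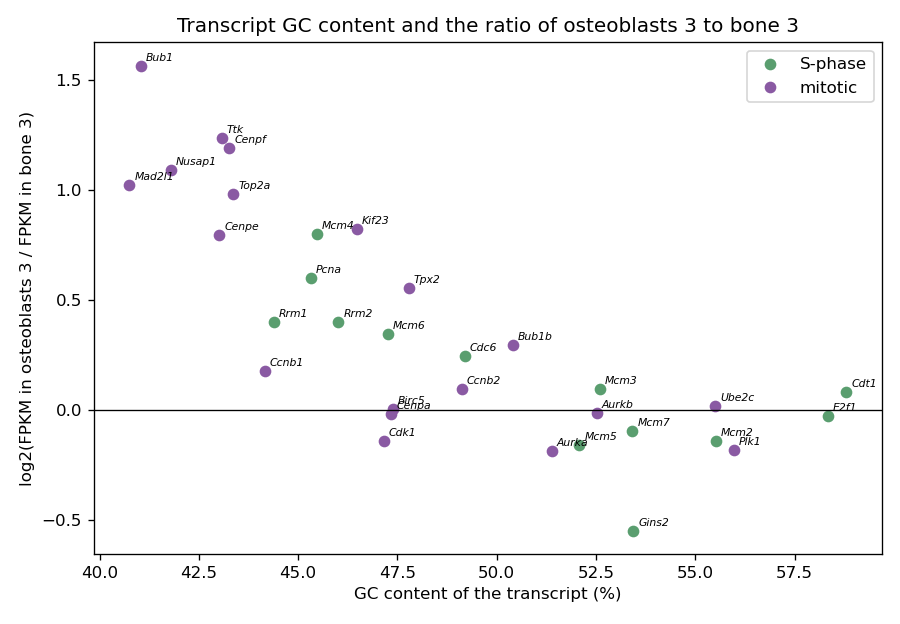
Each point is 1 of the 32 members, with the GC content of its transcript (percent) on the horizontal axis and the log2 ratio of its FPKM in osteoblasts 3 to bone 3 on the vertical axis, green for S-phase and purple for mitotic genes. The points fall from upper left to lower right, with a Spearman correlation of -0.81.

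The order of the members by level was shared by libraries with the same Hbb-bt state. Across the 32 members, Spearman correlations were 0.933 to 0.982 in the 6 library pairs of the same state and 0.673 to 0.791 in the 9 pairs of different state. These correlations were not computed over all genes, so the shared order is not read as particular to the members. Ube2c, for example, stood at percentile 42.1 in bone 1 and at percentile 96.9 in bone 3, while E2f1 stood at 35.9 and 60.3. Each percentile was taken among the named genes at 1 FPKM or more in that library, so the reference set differs between libraries.

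Other genes of the same pathways were counted from whole lists, and of each the 3 with the highest mean over the 6 libraries are given with values. That mean is set mostly by the Hbb-bt-rich libraries, so the genes with values lean to the pattern and the counts describe the lists. Of 30 other replication genes found among 35 listed, 24 had their 3 highest values in the Hbb-bt-rich libraries, beside 38.4% of all genes tested, and Orc2, Orc3, Orc4, Orc5, Pola1 and Rfc1 did not. Uhrf1, which keeps DNA methylation through replication, measured 6.96, 2.29 and 80.7, then 4.09, 78.4 and 77.6. Lig1, which joins Okazaki fragments, measured 5.13, 3.83 and 37.1, then 4.94, 49.1 and 38.5. Slbp, the histone mRNA binding protein, measured 11.5, 6.51 and 29.6, then 8.20, 36.7 and 45.4. All 3 followed the members. Of 35 other mitosis genes found among 40, 31 did so beside the same 38.4%, with Ncapg, Smc2, Zwint and Ckap2 the exceptions. Cdc25b, the phosphatase that activates Cdk1, measured 5.52, 3.07 and 66.1, then 2.85, 54.6 and 54.7. Ccnf, cyclin F, measured 3.58, 1.02 and 46.6, then 1.96, 45.3 and 39.9. Ncapd2, a condensin subunit, had the highest mean but its feature holds the small RNA Scarna10, so its level of 2837 FPKM in bone 3 is not read as condensin mRNA.

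Of 24 regulators of the program listed, 21 were found and 19 tested, and 13 of 19 had their 3 highest values in the Hbb-bt-rich libraries, beside 38.4% of all genes tested. E2f2, an activator of the E2F family, measured 0.825, 0.297 and 67.9, then 0.611, 60.1 and 55.4. E2f4, a family member that mostly represses, measured 15.4, 6.63 and 56.6, then 9.06, 48.1 and 49.3. Rbbp4, a histone-binding protein of the MuvB core, measured 20.6, 10.5 and 39.8, then 16.2, 43.5 and 41.3. E2f2 thus had a far wider step than the member E2f1. Rbl2, E2f3, Lin9, Lin54 and Nfyb did not have the pattern, and E2f5 had its 3 lowest values in those libraries, at 2.57, 1.20 and 0.589, then 1.94, 1.06 and 1.02. Median label differences were 0.63, 0.71 and 0.34 on the log2 scale for the replication, mitosis and regulator lists, and none of these genes was called by limma.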

How the data were processed

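RNA-seq of 3 bone and 3 osteoblast libraries (TruSeq RNA v2 kit, paired reads of 75 bp) was used as deposited. The authors aligned to GRCm38 (mm10) with HISAT2 2.0.5 and a SNP-aware index, and the submitters' processing notes also name SAMtools 1.7 and StringTie 1.3.3. The deposited values are FPKM, TPM and coverage per feature in 1 table per library, with no read counts. FPKM were summed by gene name and each library was used by its label. The members and lists were chosen with earlier results of these data known.

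Aligned bases were computed from coverage and FPKM, which gave 13566667 to 22586667 pairs per library; this depth limits precision through counting error only. Genes with a mean of at least 1 FPKM over the 6 libraries were tested on log2(FPKM + 1) with limma 3.58.1 (trend, two-sided, Benjamini-Hochberg) in R 4.3.3, after a check on simulated data. The simulated spread was smaller than that of the members, so the check tested the code and says nothing of the power here. All 39 members were to be named, with fold changes for 8 fixed ones, of which Mki67 had no named feature. Sums, motif counts and correlations are descriptions. Single values of some marker genes are not reported here. Promoters are from RefSeq GRCm38.p6 and GC content from the longest coding transcript. Alternatives changed the pseudocount, filter, unit, scaling, trend, replicate block and libraries, and others were added after seeing the data.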

Additional observations from a re-analysis of the deposited data

How the results depend on the processing

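In every alternative run, no more than 2 members were called, and the median label difference stayed positive. Leaving out 1 library moved the calls over all genes between 0 and 262 higher and 0 and 38 lower in osteoblasts, and the members called between 0 and 2. The most came without osteoblasts 1 (262 and 38), and without bone 3 there were 66 and 11 with 0 members. The cause was not tested. The median difference then ranged from 0.23 to 1.67 for S-phase and from 0.28 to 1.75 for mitotic genes, and the difference in log2 ratio of the sums from -0.39 to -0.01. Without bone 2, Cdk1 reversed to -0.026 and E2f1 to -0.22, and without osteoblasts 3 E2f1 reversed to -0.065 (ranges -0.026 to 1.72 and -0.22 to 0.50). With the replicate number as a replicate block, 46 genes were called higher and 3 lower, 0 of them members. The deviations of same-numbered libraries correlated at 0.84, -0.75 and 0.83. Numbers 1 and 3 join libraries of the same Hbb-bt state and number 2 joins libraries of different state. These values therefore cannot tell whether same-numbered libraries share a mouse. The other 116 single-gene values kept their direction and side of the threshold. Scaling moved the median of all genes from 0.12 to -0.03 (named sum) and 0.01 (housekeeping). Depth limits members near the floor, such as Ttk and Cdc6 in bone 2, and FPKM without counts allow no count model.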
